A study of Mus musculus with 12 samples.

Results

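The macrophages of the embryonic brain were followed through 10 genes, out of 54735 gene symbols listed for each library. The microglia genes were Csf1r, Cx3cr1, P2ry12, Tmem119, Sall1 and Siglech, and the border macrophage genes were Mrc1, Lyve1, F13a1 and Ms4a7. They were taken by symbol from lists of genes that mark homeostatic microglia or border macrophages, and all 10 symbols were found in all 12 libraries. The members were chosen by name when their TPM levels in these same 3 genotypes were already known from earlier results, so those levels are given as a description and carry no test. Every value after ± on a TPM level is the SD over the 4 libraries of a group (n = 4).

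RNA was measured in the dorsal telencephalon (pallium) of C57/Bl6 mouse embryos at E13.5, with 4 libraries per genotype. Controls were Rnu11wt/flx::Trp53wt/wt::Emx1-Cre+, the single mutants (cKO) were Rnu11flx/flx::Trp53wt/wt::Emx1-Cre+ and the double mutants (dKO) were Rnu11flx/flx::Trp53flx/flx::Emx1-Cre+. All 3 groups carried the Cre and at least 1 floxed Rnu11 allele, so no group was wild type. Rnu11 encodes the U11 RNA of the minor spliceosome and Trp53 encodes p53. Emx1-Cre recombines in the neural progenitors of the pallium and in the neurons and glia that descend from them.

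Microglia are the macrophages of the brain parenchyma. They descend from yolk sac progenitors that enter the neural tube early in development, outside the Emx1 lineage, and they depend on the receptor Csf1r. Border macrophages share this origin but settle in the meninges, the choroid plexus and the spaces around vessels, where they express scavenger and lectin receptors. In the embryo both populations take up debris and dying cells, and several genes that separate them in the adult are still low or shared.

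Rnu11 lay between 521 and 724 TPM in control, between 115 and 159 in cKO and between 142 and 199 in dKO, and Trp53 lay between 0.920 and 1.49 TPM in dKO against 2.63 to 6.37 in the other 2 groups. TPM (transcript abundance on a fixed library sum) is scaled for gene length, so levels of different genes can be compared, but it keeps no sequencing depth. The depth of each library is therefore unknown and no counting interval is given. The typical gene was not level between the groups. Over the 11764 genes that averaged 1 TPM or more, the median difference from control on the log2(TPM + 1) scale was 0.25 in cKO and -0.01 in dKO, and the median of dKO minus cKO was -0.26. Ratios are therefore given as deposited and after centring, in which each library is multiplied by 1 factor that sets its typical tested gene to the mean library. The pallial genes listed were Emx1, Pax6, Tbr1, Eomes and Neurod6. Their sum was 116 to 143 TPM in control, 129 to 158 in cKO and 73.97 to 116 in dKO. After centring it was 118 to 156, 110 to 133 and 82.3 to 122 TPM in the same order. The ventral genes Dlx1, Dlx2, Gad2, Nkx2-1 and Gsx2 were lower. They summed to 1.19 to 1.82 TPM in control, 2.22 to 3.79 in cKO and 1.08 to 2.61 in dKO. All cKO libraries lay above all controls for this ventral sum as deposited. After centring the ranges overlapped, at 1.27 to 1.92 TPM in control and 1.70 to 3.19 in cKO.

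The macrophage lineage is set by the ETS factor PU.1, whose binding sites hold a purine-rich core. Upstream sequences are shown for 4 members: Mrc1, F13a1 and Cx3cr1, which were all high in cKO, and P2ry12, which was not. Each is the 250 bases before the RefSeq transcription start (GRCm38.p6), printed 5′ to 3′ on the strand of the gene, and capitals mark the core GAGGAA on either strand (TTCCTC on the printed strand where the core lies on the other). The Mrc1 window lies at chr2:14229164-14229413 (+), F13a1 at chr13:37050245-37050494 (-), Cx3cr1 at chr9:120068297-120068546 (-) and P2ry12 at chr3:59262986-59263235 (-).
Mrc1: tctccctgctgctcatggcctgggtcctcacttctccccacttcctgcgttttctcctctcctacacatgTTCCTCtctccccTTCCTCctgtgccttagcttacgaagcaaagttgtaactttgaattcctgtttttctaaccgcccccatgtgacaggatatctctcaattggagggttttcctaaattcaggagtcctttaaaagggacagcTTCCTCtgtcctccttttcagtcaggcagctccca
F13a1: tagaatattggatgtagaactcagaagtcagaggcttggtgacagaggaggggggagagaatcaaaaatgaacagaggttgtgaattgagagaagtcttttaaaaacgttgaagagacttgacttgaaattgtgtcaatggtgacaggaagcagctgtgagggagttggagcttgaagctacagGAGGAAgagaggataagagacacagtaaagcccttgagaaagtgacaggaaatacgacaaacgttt
Cx3cr1: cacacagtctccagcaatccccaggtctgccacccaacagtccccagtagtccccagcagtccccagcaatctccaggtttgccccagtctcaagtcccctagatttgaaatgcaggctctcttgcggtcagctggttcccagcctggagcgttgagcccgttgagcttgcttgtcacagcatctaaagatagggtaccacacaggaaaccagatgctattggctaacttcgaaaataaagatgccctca
P2ry12: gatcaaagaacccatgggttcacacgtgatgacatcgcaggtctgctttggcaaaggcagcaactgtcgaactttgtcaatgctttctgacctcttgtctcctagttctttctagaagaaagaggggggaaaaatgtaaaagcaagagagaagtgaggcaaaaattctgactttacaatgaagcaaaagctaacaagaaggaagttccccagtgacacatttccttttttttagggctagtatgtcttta

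GAGGAA was found 3 times in the Mrc1 window and 1 time in the F13a1 window, and not in the windows of Cx3cr1 and P2ry12. Other forms of the core were not searched. The shorter GGAA, which GAGGAA contains, is present in the printed Cx3cr1 and P2ry12 windows as well. RefSeq windows were used for 7 of the 10 members and not for Csf1r, Tmem119 and Lyve1. Of the 7, 2 held GAGGAA, against 23.3% of all 32851 windows of the same length. The windows of Ms4a7, which was also high in cKO, and of Sall1 and Siglech held none and are not printed. The MAF half-site TGCTGA, searched on both strands in the same way, was found in 0 of the 7 and in 16.1% of all windows. The motifs were chosen after the levels had been seen, and a match of these letters is a description, not a binding site.

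In cKO 7 of the 10 members stood above control in every library, against 17.4% of the 39624 genes with any value above 0 (and 7 after centring, against 7.12%), at 2.04 to 4.92 times the control mean (1.63 to 3.97 times after centring), and their dKO means were 1.20 to 1.60 times control. These were Csf1r, Cx3cr1 and Tmem119 among the microglia genes and all 4 border macrophage genes. The share is larger among better expressed genes. Of the 11764 that averaged 1 TPM or more, 3852 had all cKO libraries above all controls, and 1097 after centring. P2ry12, Siglech and Sall1 overlapped with control as deposited, and Sall1 had the lower mean in cKO. In bulk tissue, more cells of a type and more RNA per cell cannot be told apart.

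Csf1r encodes the receptor for colony-stimulating factor 1 and interleukin 34, on which microglia depend for survival. It stood at 0.733, 0.545, 0.410 and 0.461 TPM in controls 1 to 4, at 1.87, 2.14, 1.38 and 1.63 in cKO 1 to 4, and at 0.521, 0.787, 1.09 and 0.970 in dKO 1 to 4. Every cKO library lay above every control and every dKO library, and dKO overlapped with control. Csf1r shares 873 exon bases with Hmgxb3 on the opposite strand, which averaged 2.90 TPM in the controls, 3.80 in cKO and 3.09 in dKO, and its part in the Csf1r values was not tested. The cKO mean of Csf1r was 3.26 times the control mean (2.64 times after centring), and the dKO mean was 1.57 times it (1.59 times after centring).

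Cx3cr1 encodes the fractalkine receptor, carried by microglia from early embryonic stages. Its levels were 0.844, 0.643, 0.505 and 0.760 TPM in the controls, 3.40, 3.42, 2.12 and 2.99 in the cKO libraries, and 0.688, 0.780, 0.983 and 0.841 in the dKO libraries. The cKO libraries again formed a separate group, 4.33 times control by the mean (3.51 after centring), while dKO (1.20 times control) overlapped with control. Of the microglia members this was the one with the highest ratio in cKO.

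Tmem119, a membrane protein that marks mature microglia and is low before birth, reached 0.543, 0.422, 0.502 and 0.504 TPM in the controls, 0.720, 1.16, 0.807 and 1.34 in the cKO libraries, and 0.562, 0.581, 0.945 and 0.748 in the dKO libraries. All cKO and all dKO libraries lay above all controls, and the mutants overlapped with each other. The mean ratios to control were 2.04 in cKO and 1.44 in dKO (1.63 and 1.47 after centring), so Tmem119 differed least between the mutants among the members that stood higher in cKO.

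P2ry12, the ADP receptor with which microglial processes sense injury, did not share the pattern of Csf1r and Cx3cr1. It stood at 1.29, 1.56, 1.68 and 1.58 TPM in the controls, 1.92, 1.45, 1.32 and 2.34 in the cKO libraries, and 1.27, 1.25, 1.15 and 0.917 in the dKO libraries. Control and cKO overlapped, with a mean ratio of 1.15 (0.919 after centring). All dKO libraries lay below all controls as deposited, with a mean ratio of 0.752, but not after centring (0.761). In control P2ry12 was the third of the 10 members by level, at 1.53 TPM on average beside 0.538 for Csf1r, and in cKO the 2 genes stood level at 1.76 and 1.75 TPM. The whole P2ry12 gene lies inside Med12l, which is transcribed from the other strand, with 9 shared exon bases. Med12l averaged 0.933 ± 0.0812 TPM in the controls, 1.27 ± 0.220 in the cKO and 0.978 ± 0.253 in the dKO libraries, and whether the authors' quantification kept the strands apart is not given in the sources used here. The part of Med12l reads in the P2ry12 values was not tested.

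P2ry13, another ADP receptor gene of microglia, also lies inside Med12l on the opposite strand, with 0 shared exon bases. It was picked out after its values were seen. P2ry13 averaged 0.382 ± 0.0810 TPM in the controls, 1.13 ± 0.0838 in the cKO and 0.266 ± 0.0678 in the dKO libraries, and limma called it higher in cKO when run without a filter on low values (adjusted p = 0.000546, and 0.00753 after centring).

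Siglech, a sialic acid-binding lectin of microglia and plasmacytoid dendritic cells, was close to the bottom of the range in all libraries. It lay between 0.0236 and 0.106 TPM in the controls, 0.0515 and 0.298 in the cKO libraries, and 0.0715 and 0.114 in the dKO libraries. The groups overlapped, and 1 library, cKO 4, set the top of the cKO range.

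Sall1 encodes a zinc finger factor that maintains microglial identity and is also made by progenitors of the cortex. It was the most abundant member in control and dKO, at 6.86, 4.12, 4.81 and 5.99 TPM in the controls, 3.82, 3.78, 3.26 and 4.94 in the cKO libraries, and 4.78, 7.57, 5.86 and 3.32 in the dKO libraries. The cKO mean was 0.725 of control with overlapping groups. After centring it was 0.585 of control and all cKO libraries lay below all controls. Sall1 averaged 5.45 ± 1.22 TPM in the controls beside 0.538 ± 0.142 for Csf1r, and its direction in cKO was opposite to that of Csf1r. Its sources were not separated, so Sall1 was left out of the microglia sum below.

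**Figure D1:**
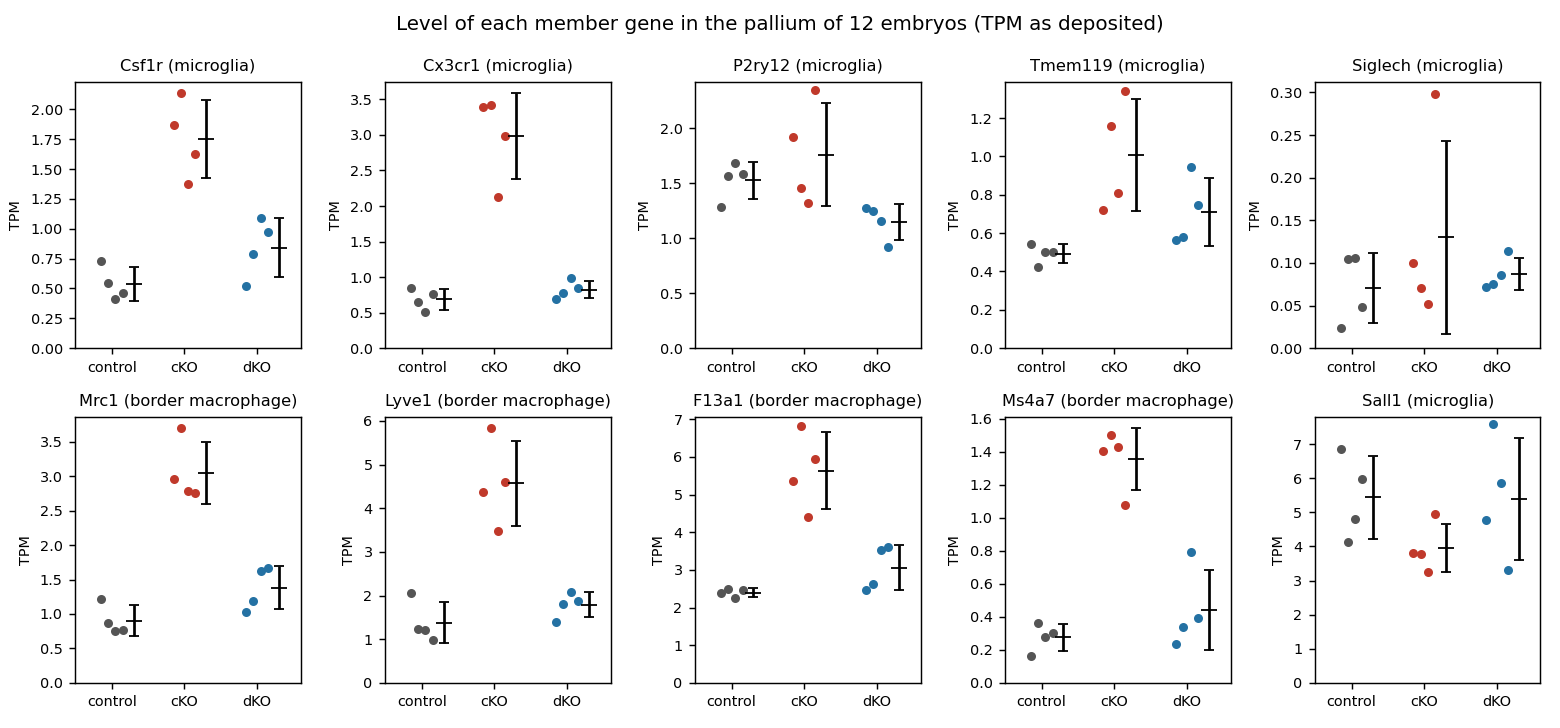
Level of each of the 10 members in TPM as deposited (y axis, from 0), with 1 point per embryo for control, cKO and dKO (x axis) and the mean and SD of 4 embryos as bars. The 4 cKO points lie above all control points for Csf1r, Cx3cr1, Tmem119, Mrc1, Lyve1, F13a1 and Ms4a7, and overlap with them for P2ry12, Siglech and Sall1.

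All 4 border macrophage members stood higher in cKO. Mrc1 encodes the mannose receptor CD206, an endocytic lectin. It stood at 1.22, 0.874, 0.747 and 0.762 TPM in the controls, 2.95, 3.71, 2.78 and 2.75 in the cKO libraries, and 1.04, 1.19, 1.62 and 1.67 in the dKO libraries. The cKO libraries were separate from both other groups, at 3.38 times control (2.75 after centring), and dKO overlapped with control at 1.53 times.

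Lyve1, a hyaluronan receptor of perivascular and meningeal macrophages and of lymphatic endothelium, stood at 2.06, 1.24, 1.22 and 0.982 TPM in the controls, 4.37, 5.84, 3.48 and 4.61 in the cKO libraries, and 1.40, 1.80, 2.08 and 1.88 in the dKO libraries. The cKO group was again separate, at 3.32 times control (2.69 after centring). Control 1 was the highest control for Lyve1, Mrc1, Csf1r and Cx3cr1 alike.

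F13a1 encodes the A chain of coagulation factor XIII, made by tissue macrophages and monocytes. It was the most abundant border member in all 3 groups, at 2.37, 2.50, 2.24 and 2.48 TPM in the controls, 5.35, 6.83, 4.41 and 5.96 in the cKO libraries, and 2.46, 2.63, 3.53 and 3.61 in the dKO libraries. The control values were close together, and its ratio in cKO, 2.35 (1.88 after centring), was the lowest of the 4 border members.

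Ms4a7, a tetraspanning membrane protein found in border macrophages and low in adult microglia, had the highest ratio of all 10 members. It stood at 0.160, 0.360, 0.279 and 0.302 TPM in the controls, 1.40, 1.501, 1.43 and 1.08 in the cKO libraries, and 0.237, 0.336, 0.795 and 0.395 in the dKO libraries. The cKO mean was 4.92 times control (3.97 after centring) and the dKO mean 1.60 times control, with dKO 3 standing above the other 3 dKO libraries.

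The order of levels differed between the groups. In control it ran from Sall1 through F13a1, P2ry12, Lyve1, Mrc1, Cx3cr1, Csf1r, Tmem119 and Ms4a7 to Siglech, and the neighbours from P2ry12 to Tmem119 overlapped in their ranges. In cKO it ran from F13a1 through Lyve1, Sall1, Mrc1, Cx3cr1, P2ry12, Csf1r, Ms4a7 and Tmem119 to Siglech, where every pair of neighbours overlapped except the last. In dKO the order was Sall1, F13a1, Lyve1, Mrc1, P2ry12, Csf1r, Cx3cr1, Tmem119, Ms4a7 and Siglech, and only F13a1 and Lyve1, and Ms4a7 and Siglech, were neighbours with separate ranges.

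After centring 1 of the 10 members, Sall1, had all cKO libraries below all controls, against 2.78%. In dKO 1 member (Tmem119) lay wholly above control as deposited, against 3.69%, and 1 (P2ry12) wholly below, against 4.59%. For dKO against cKO, 7 had all dKO libraries below all cKO libraries, against 17.2%, and 5 after centring, against 6.24%. Of the 11764 genes that averaged 1 TPM or more, 959 lay wholly below control in cKO after centring. In dKO 605 of them lay wholly above control and 993 wholly below, as deposited. Wholly below cKO in dKO were 3861 as deposited and 891 after centring. A filter on low values (mean of at least 1 TPM) kept 7 of the 10, leaving out Tmem119, Siglech and Ms4a7. Csf1r and Cx3cr1 had means under 1 TPM in control and in dKO and passed only through cKO, where they are high. Because the members were chosen with these groups in view, nothing is read from these counts.

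The fitted differences as log2(TPM + 1), a scale that compresses such low genes, were 1.23 ± 0.120 for Cx3cr1, 0.84 ± 0.125 for Csf1r, 1.23 ± 0.150 for Lyve1, 1.09 ± 0.120 for Mrc1 and 0.95 ± 0.123 for F13a1 in cKO against control (SE, limma). For P2ry12 the same difference was 0.11 ± 0.118 and for Sall1 it was -0.37 ± 0.195. In dKO against control the 7 differences ran from -0.24 (P2ry12) to 0.32 (Mrc1).

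Microglia and border macrophage genes were then set against each other by summing TPM within each library. The microglia sum took Csf1r, Cx3cr1, P2ry12, Tmem119 and Siglech. It was 3.43, 3.28, 3.20 and 3.35 TPM in the controls, 8.001, 8.24, 5.68 and 8.60 in the cKO libraries, and 3.12, 3.47, 4.25 and 3.59 in the dKO libraries. The sum of the 4 border genes was 5.82, 4.98, 4.49 and 4.52 TPM in the controls, 14.1, 17.9, 12.1 and 14.4 in the cKO libraries, and 5.13, 5.96, 8.02 and 7.55 in the dKO libraries. Both sums were separate in cKO, and the means were 2.30 and 2.95 times those of control. After centring the 2 ratios were 1.85 and 2.38. The separation of the microglia sum rests on leaving out Sall1: with Sall1 the sum was 7.40 to 10.3 TPM in the controls and 8.94 to 13.54 in cKO, with overlapping ranges, and the log2 difference was 0.40 in place of 1.18.

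The ratio of the border sum to the microglia sum does not depend on how a library is scaled. It averaged 1.49 ± 0.154 in the controls, 1.93 ± 0.253 in cKO and 1.84 ± 0.204 in dKO, and control overlapped with both mutants. This difference rested on P2ry12. Without P2ry12, an alternative added after the data were seen, the border sum was 2.78 ± 0.182, 2.51 ± 0.237 and 2.72 ± 0.108 times the microglia sum in control, cKO and dKO, and the microglia sum in cKO was 3.28 times control beside 2.95 times for the border sum. The direction of the difference between cKO and control therefore turned with 1 gene, and these data do not fix an order between the 2 populations.

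**Figure D2:**
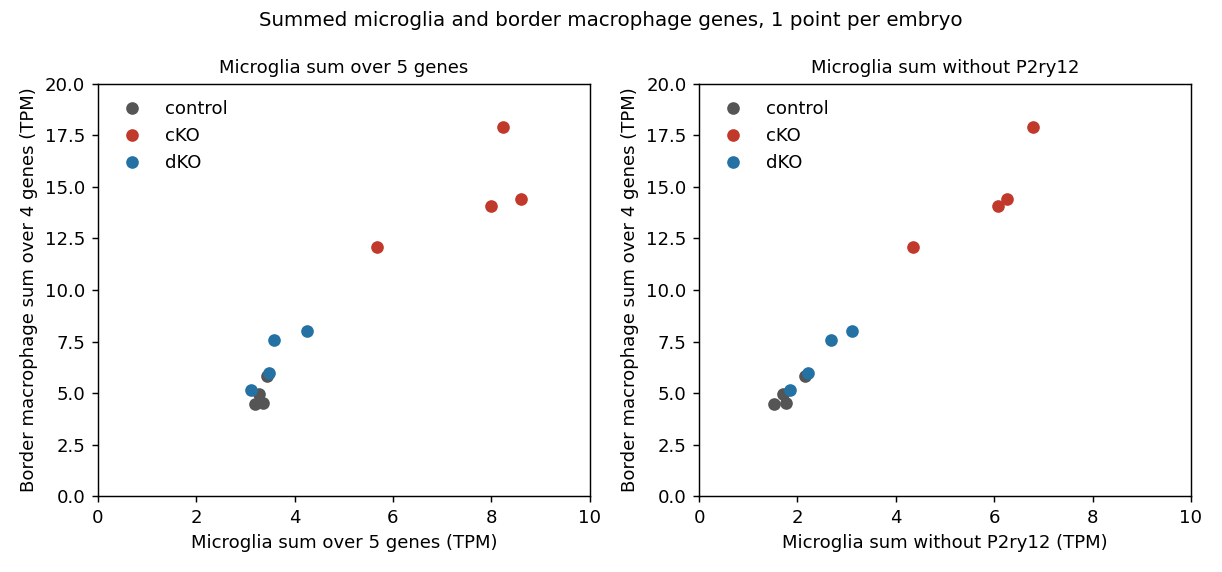
Summed border macrophage genes (y axis, TPM) against summed microglia genes (x axis, TPM), with 1 point per embryo, for the 5 microglia genes (left) and without P2ry12 (right). The 4 cKO points lie apart from the others at border sums of 12.1 to 17.9 TPM, while control and dKO lie between 4.49 and 8.02 TPM.

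Genes outside the 10 members were tested with limma over all genes, with Benjamini-Hochberg adjustment over all tested genes. They come from the same libraries as the members and were listed with earlier results known, so they describe the same difference and are not independent support for it. In cKO against control, 34.3% of tested genes were called higher and 1.09% lower as deposited, and 3.96% and 3.26% after centring.

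Of 14 other microglia genes, 1 passed the filter, Fcrls, and it rose in cKO. Fcrls, an Fc receptor-like scavenger receptor used as a microglia marker in mice, rose from a control mean of 1.29 ± 0.173 TPM to 7.52 ± 1.36 in cKO, and its dKO mean was 1.83 ± 0.281. Its log2 difference was 1.89 ± 0.119 (SE, limma adjusted p = 1.73e-06), the largest among the tested genes reported from the 3 macrophage lists. The call was kept after centring (limma adjusted p = 5.04e-06). In dKO against cKO Fcrls fell (limma adjusted p = 7.63e-06).

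Without the filter on low values all 14 could be tested and 11 were called higher in cKO, 0 lower, against 11% of all genes higher. After centring 7 of the 14 were called higher, against 1.5%, and with rescaling to an equal protein-coding sum 8, against 3.41%. In dKO against cKO 9 of the 14 were called lower, against 14.5%, and 6 after centring, against 1.67%, or 7 with rescaling, against 3.11%. Many of all genes lie near 0. Of the 11764 that averaged 1 TPM or more, the unfiltered fit called 2700 higher in cKO, 294 after centring and 787 with rescaling. In dKO against cKO it called 3464 of them lower, 321 after centring and 621 with rescaling. The same counts apply to the lists that follow. The median ratio of the 14 in cKO was 3.39 (2.76 after centring), beside 1.23 (0.994 after centring) over the 11764 tested genes. In dKO against control limma called 0 of the 1 tested gene and 0 of 14 without the filter (1 and 2 at an unadjusted p under 0.05, all higher), where 0.681% of all genes were called higher without the filter and 1.19% without it after centring.

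Of 15 other border macrophage genes, Pf4, Stab1 and Dab2 passed the filter, and all 3 rose in cKO as deposited. Pf4, a chemokine of platelets and border macrophages, averaged 1.58 ± 0.382 TPM in the controls, 4.80 ± 1.02 in the cKO and 3.04 ± 1.40 in the dKO libraries (limma adjusted p = 0.00280 in cKO and 0.140 in dKO). Dab2, an endocytic adaptor, averaged 1.21 ± 0.254 TPM in the controls, 3.42 ± 0.217 in the cKO and 1.71 ± 0.413 in the dKO libraries (limma adjusted p = 0.000149 in cKO). Stab1, a scavenger receptor of macrophages and sinusoidal endothelium, averaged 1.90 ± 0.329 TPM in the controls and 3.54 ± 1.02 in the cKO libraries (limma adjusted p = 0.0372), and this call was lost after centring (limma adjusted p = 0.251). It was also lost without any 1 of 7 libraries (the 4 controls and cKO 2, 3 and 4), with limma adjusted p up to 0.117. In dKO against cKO limma called Dab2 lower (adjusted p = 0.00103). Without the filter and after centring, limma no longer called Pf4 in cKO (adjusted p = 0.0633) or Dab2 in dKO against cKO (adjusted p = 0.0715), where the centred Dab2 ranges also overlapped.

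Without the filter 14 of the 15 border genes could be tested and 7 were called higher in cKO, against 11% of all genes, and 4 after centring, against 1.5%. Among them Ms4a6c, named after its values were seen, averaged 0.153 ± 0.0235 TPM in the controls, 1.59 ± 0.179 in cKO and 0.276 ± 0.0602 in dKO. Limma called it higher in cKO without the filter (adjusted p = 9.57e-06, and 3.28e-05 after centring). Several markers of adult border macrophages were hardly present: Ccl8 was listed at 0 in all 12 libraries, and Cd163, Cbr2, Cd209f, Clec12a and Lilra5 had means under 0.1 TPM in every group. The median ratio of the list in cKO was 2.86 (2.31 after centring). In dKO against control the median ratio was 1.60, and limma called 0 of the 3 tested genes (2 at an unadjusted p under 0.05, both higher). No list's difference from another was tested.

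Of 17 genes shared by macrophages, 7 passed the filter. The 7 were called higher in cKO than in control as deposited, against 34.3% of tested genes, and after centring, against 3.96%. The 7 were also called lower in dKO than in cKO as deposited, against 38.8% of tested genes, and after centring, against 4.22%. Among them Cd53 passed the filter only through cKO, at 0.591 TPM in the controls, 2.11 in cKO and 0.674 in dKO. Aif1 (Iba1), the calcium-binding protein used to stain microglia, rose from 0.969 ± 0.193 to 5.04 ± 0.469 TPM, with a dKO mean of 1.11 ± 0.185 (limma adjusted p = 1.60e-06 in cKO and 0.644 in dKO against control). Tyrobp, the adaptor of Trem2 signalling, rose from 1.47 ± 0.448 to 7.70 ± 0.795 TPM, with a dKO mean of 2.14 ± 0.242 (limma adjusted p = 2.78e-06). Fcgr3, Ctss and Fcer1g, an IgG receptor, a lysosomal protease and the Fc receptor gamma chain, rose 3.92, 3.60 and 4.06 times (limma adjusted p from 7.25e-06 to 1.66e-05).

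Without the filter 15 of the 17 shared genes were called higher in cKO, against 11% of all genes (13 after centring, against 1.5%), and 15 lower in dKO against cKO, against 14.5% (10 after centring, against 1.67%). In dKO 14 of the 17 had a higher mean than in control, and Fcgr1, Irf8 and Cyth4 had a lower one. Fcer1g was the only one of the 7 called in dKO against control, at 1.67 times, against 1.79% of tested genes called higher (limma adjusted p = 0.0430), and the limma call was lost without the filter (adjusted p = 0.101) and without any 1 of 9 libraries (all but control 2, cKO 3 and dKO 1), with adjusted p up to 0.125. Fcgr3 was called there after centring, where 3.95% of tested genes were called higher (limma adjusted p = 0.0351), but not as deposited (adjusted p = 0.0728).

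**Figure D3:**
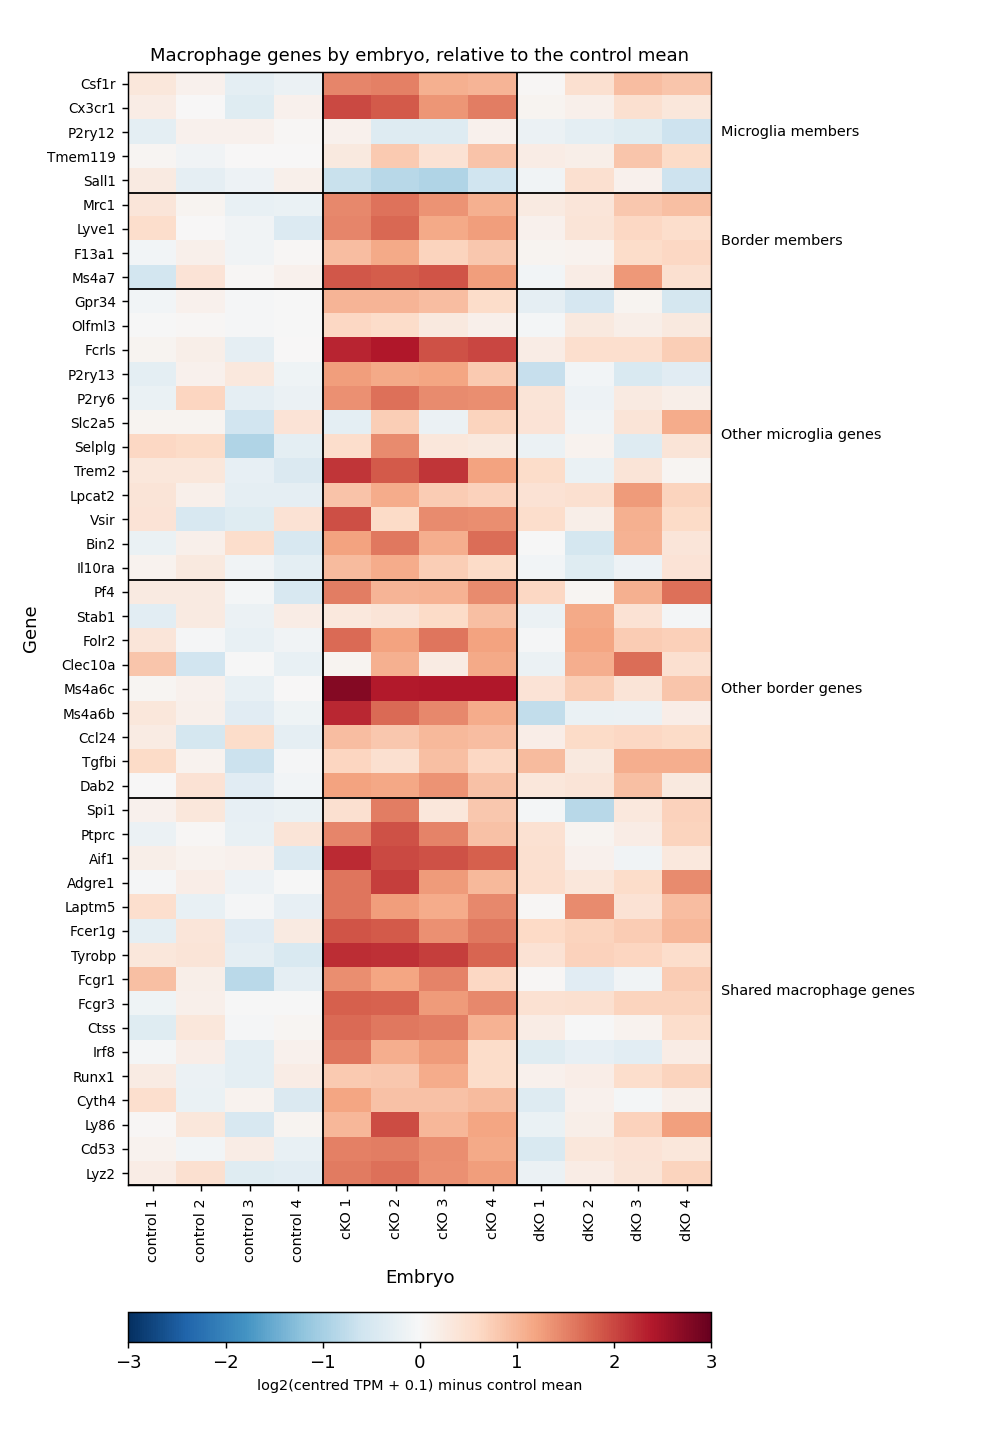
Centred levels of the 46 member and listed macrophage genes that average 0.1 TPM or more (rows) in the 12 embryos (columns), as log2(centred TPM + 0.1) minus the control mean, red for higher and blue for lower. All 4 cKO columns lie above the control mean in every row except P2ry12, Sall1 and Slc2a5, and the dKO columns are paler in most rows.

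Receptor ligands and the TGF-beta signals that shape microglia were listed as well, 9 genes in all, of which 5 passed the filter. In cKO 4 of the 5 rose as deposited, against 34.3% of tested genes called higher, and 2 (Csf1 and Tgfbr2) after centring, against 3.96%. Csf1, the ligand of Csf1r, rose from a control mean of 0.822 ± 0.271 TPM to 2.37 ± 0.643 in cKO, with a dKO mean of 0.957 ± 0.156 (limma adjusted p = 0.00179 in cKO, 0.00583 after centring). It passed the filter only through cKO, where it is high, and limma also called it without the filter (adjusted p = 0.00472). The second Csf1r ligand, Il34, was lower and did not pass the filter, at 0.157 ± 0.0967, 0.355 ± 0.117 and 0.161 ± 0.0587 TPM in the order control, cKO, dKO. Cx3cl1, the ligand of Cx3cr1, had means of 0.370 ± 0.363, 0.528 ± 0.249 and 0.359 ± 0.0723 TPM in the same order, with overlapping groups.

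Other blood and vessel cells were measured beside the macrophages. The monocyte, neutrophil and lymphoid lists hold 8 genes each, and none passed the filter. Without the filter limma called 2 of 8 monocyte genes higher in cKO, 1 of 8 lymphoid genes and 0 of 8 neutrophil genes (0 at an unadjusted p under 0.05), against 11% of all genes, and 0 in each list after centring. The called genes were Plac8, at 0.170 TPM on average in the controls and 0.521 in cKO (limma adjusted p = 0.0231), Ccr2, the receptor of inflammatory monocytes, at 0.0242 and 0.0966 (limma adjusted p = 0.0360), and Cd79a, part of the B cell receptor, at 0.0036 and 0.0771 (limma adjusted p = 0.0437). The values of Ly6c2 were 0 throughout cKO and those of Elane throughout control and cKO, and Cd3e, Cd3g, Ncr1 and Klrb1c were listed at 0 in all controls. The neutrophil gene S100a9 reached 2.11 TPM in 1 cKO library, and Prtn3 averaged 0.413 to 0.497 TPM in the 3 groups. The sum of the 8 monocyte markers was 0.652 to 1.02 TPM in cKO, 0.207 to 0.372 in dKO and 0.175 to 3.28 in control, where Hp set the top in control 1. The sum of the 8 neutrophil markers was 0.405 to 3.11 TPM in cKO, 0.576 to 2.84 in dKO and 0.578 to 0.960 in control. The 8 lymphoid markers summed to 0.160 to 0.471 TPM in cKO, 0.0757 to 0.206 in dKO and 0.0442 to 0.0940 in control.

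Vessel and meningeal genes were listed as well. The 8 endothelial markers summed to 11.6 to 14.95 TPM in control, 22.1 to 29.8 in cKO and 13.7 to 22.8 in dKO. Limma called 8 of 8 higher in cKO as deposited, against 34.3% of tested genes, and 3 after centring, against 3.96%. Their median ratio in cKO was 1.92 (1.55 after centring). The 9 markers of meningeal fibroblasts summed to 24.3 to 42.3 TPM in control, 44.5 to 53.7 in cKO and 39.8 to 56.4 in dKO, with a median ratio of 1.67 in cKO (1.34 after centring) and a higher mean in cKO for 8 of the 9. The exception was Col1a1, at 0.743 of control. Limma called 4 of the 5 tested meningeal genes higher in cKO as deposited, against 34.3% of tested genes, and 0 after centring, against 3.96% (5 of 9 without the filter, at an unadjusted p under 0.05 after centring). In dKO against control limma called 1 of the 5 higher as deposited and 3 after centring, and 0 and 2 of the 8 endothelial genes, against 1.79% and 3.95% of tested genes. In dKO the ranges of the meningeal sum and of its cKO values overlapped, while those of the border macrophage sum did not. Limma called 0 of 7 tested red blood cell genes in cKO (0 at an unadjusted p under 0.05), and the 8 listed had a median ratio of 1.27 in cKO (1.01 after centring). The part of vessels, meninges and blood in the macrophage values was not tested.

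**Figure D4:**
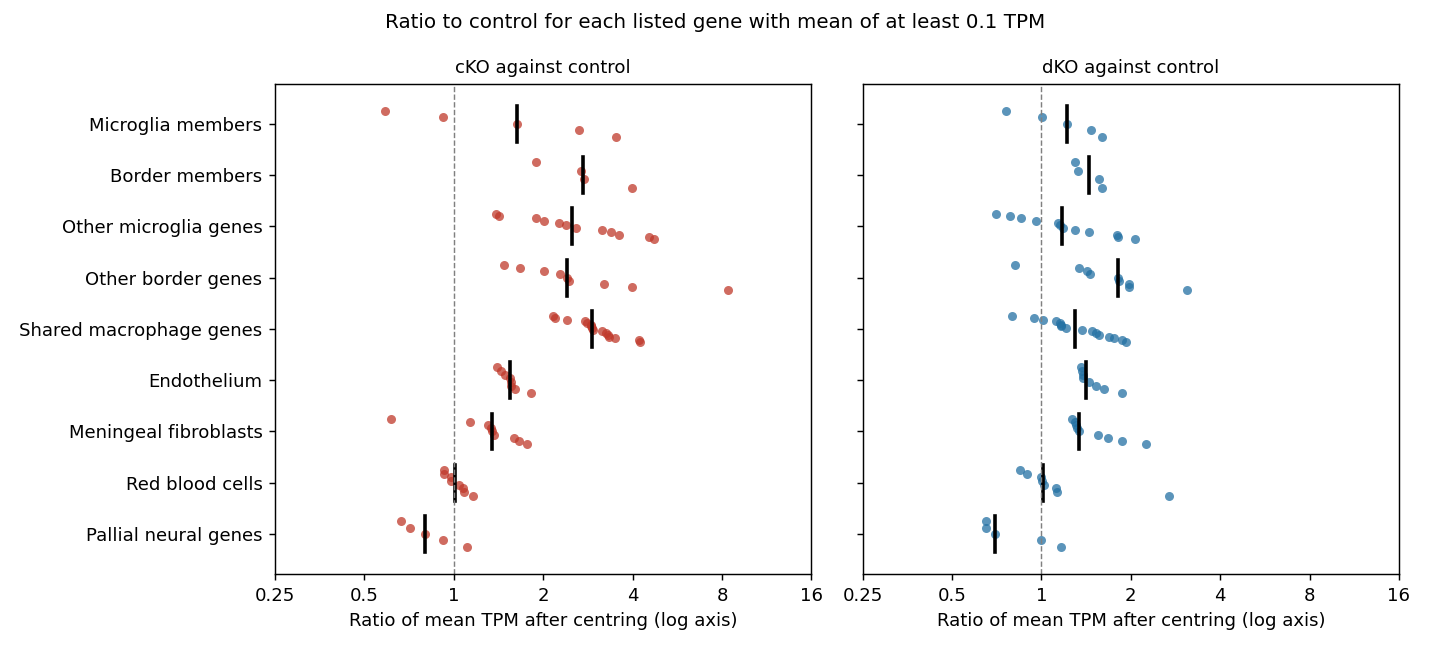
Ratio of mean TPM after centring (x axis, log scale) in cKO (left) and dKO (right) against control, with 1 point per listed gene of at least 0.1 TPM on average and a black line at the median of each list. In cKO the medians were 1.63 for the microglia members (range 0.585 to 3.51) and 2.72 for the border members. They were 2.49 for other microglia genes, 2.40 for other border genes and 2.92 for shared macrophage genes. Beside these stood 1.55 for endothelium, 1.34 for meningeal fibroblasts, 1.01 for red blood cells and 0.800 for pallial neural genes.

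The genes most like the members were searched among 11757 tested genes that are not members, by Pearson correlation over the 12 libraries on centred values. Most like the microglia sum were Rab32, C1qc, C1qb, Ctsd, Fcgr3 and Fcrls, with r from 0.966 to 0.979 (Spearman's rho from 0.902 to 0.958). Rab32 passed the filter only through cKO, where it is high, at 0.556 TPM in the controls, 1.93 in cKO and 0.664 in dKO. Most like the border sum were C1qc, C1qb, Ctsd, C1qa, Lcp1 and Lgmn, with r from 0.968 to 0.979 (rho from 0.916 to 0.979). C1qa, C1qb and C1qc encode the chains of complement C1q and Ctsd and Lgmn encode lysosomal proteases. The sets share C1qb, C1qc and Ctsd, and the r values are a description over 12 libraries in which cKO stands apart in both sums. C1qb averaged 3.13 TPM in the controls, 14.9 in cKO and 4.50 in dKO.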

How the data were processed

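RNA from 12 pallia was sequenced as stranded total RNA. The values are TPM per gene symbol as deposited by the authors, 1 table per library. The unit is read from the values, which are fractional and sum to 1000000. HISAT2 and mm10 are named in the submitters' processing notes, and the quantification tool, annotation and treatment of shared or opposite-strand reads are not given in the sources used here. Gene models came from GENCODE M21 (GRCm38, the same build as mm10).

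Groups were taken from the labels. The log2(TPM + 1) values entered limma 3.58.1 (R 4.3.3, trend, 3 groups in 1 fit) for the 11764 genes that averaged 1 TPM or more, with calls at a Benjamini-Hochberg adjusted p under 0.05. Nothing states that libraries come from separate litters, so p-values measure the spread between these libraries. The members and lists were chosen with earlier results of these data known, and 2 listed genes are not reported here. Genes named outside the members are, for the 3 macrophage lists, up to 5 called genes by smallest adjusted p, and others named were chosen after their values were seen. Replicate numbers were not used as a block.

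Alternatives were a pseudocount of 0.1, no filter, a mean of at least 5 TPM, median-shift centring, protein-coding rescaling (1 factor per library for an equal protein-coding sum), quantile normalization, array weights, a replicate block and leaving out each library. Centring factors came from log2 TPM of tested genes above 0 in all libraries. On simulated data for cKO against control with 200 of 11764 genes changed by 1 on the log2 scale, 184 were recovered with 17 false calls. The simulated noise was independent between genes and held no shift common to all genes, unlike these libraries. The simulation therefore says nothing on calls that come from such a shift. Plots were drawn with matplotlib 3.10.9.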

Additional observations from a re-analysis of the deposited data

How the results depend on the processing

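Depth is unknown, and most members lie near 1 TPM, so the log2(TPM + 1) scale compresses them. Of 351 alternative values of single members, 35 moved by more than the spread between libraries, and 0 of the called ones changed sign. The 35 were 12 of 30 with centring and 23 of 30 with a pseudocount of 0.1, beside 0 of 30 with protein-coding rescaling. The values outside these settings came from leaving out 1 library or from the replicate block. With 4 libraries per group these cannot move a value that far, so they say nothing on stability. Replicate numbers do not pair the libraries: deviations of same-numbered libraries correlated at -0.0954 to 0.0745 in 12 pairs, and 1 of 12 libraries correlated best with its own number. With the replicate block the calls over all genes went from 4163 to 2979 in cKO, from 610 to 409 in dKO and from 4636 to 3608 between the mutants, and the block moved no count of the 3 macrophage lists by over 1.5 times while the filter was kept.

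Counts of called genes are given as cKO against control, then dKO against cKO. Other microglia genes gave 1 and 1, other border genes 3 and 1, and shared genes 7 and 7. Without the filter these were 11 and 9, 7 and 5, and 15 and 15. With no filter and centring, chosen after seeing the data, they were 7 and 6, 4 and 2, and 13 and 10. With no filter and protein-coding rescaling, also chosen then, they were 8 and 7, 6 and 3, and 14 and 10. With no filter and the replicate block they were 9 and 8, 6 and 4, and 15 and 11. At a mean of at least 5 TPM no gene of these lists was left to test. In dKO against control the shared genes gave 1, which became 2 with a pseudocount of 0.1, centring, protein-coding rescaling or quantile normalization, 3 with array weights and 0 without the filter under each scaling or with the block. Border genes there went from 0 to 2 with array weights. Leaving out 1 library gave 0 to 2 shared genes (0 without any 1 of 9 libraries, 2 without cKO 3) and 0 to 1 border genes (Pf4 without dKO 2) in dKO against control, 1 to 2 border genes in dKO against cKO (Pf4 without cKO 3 or dKO 4, Stab1 without dKO 2) and 2 to 3 border genes in cKO. The other ranges were 1 to 1, 0 to 0 and 1 to 1 for microglia genes and 7 to 7 for shared genes in cKO and in dKO against cKO. Over all genes, centring took the calls from 4163 to 849 in cKO, from 610 to 1059 in dKO and from 4636 to 816 between the mutants. Protein-coding rescaling gave 1539, 1080 and 1139, quantile normalization 810, 1029 and 798, array weights 6099, 1579 and 5673, and a mean of at least 5 TPM 1900, 294 and 2220.

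The log2 difference of the microglia sum was 1.18 for cKO against control, 0.88 with centring, 0.53 as the mean of log2(TPM + 1), 0.40 with Sall1 and 1.71 without P2ry12. For dKO against cKO it was -1.07, with -0.74, -0.46 and -0.37 under the first 3. For dKO against control it was 0.11, and 0.44 without P2ry12. The border sum differed by 1.56 in cKO, 1.25 with centring and 1.04 as the mean of logs, and by -1.14, -0.81 and -0.80 in dKO against cKO. The log2 ratio of border to microglia sums differed by 0.37 in cKO, 1.16 with Sall1 and -0.15 without P2ry12. It differed by 0.30 in dKO against control and -0.029 without P2ry12. In dKO against cKO it was -0.07, with -0.33 as the mean of logs, -0.77 with Sall1 and 0.12 without P2ry12. Leaving out 1 library gave 1.12 to 1.32, 0.03 to 0.18 and -1.21 to -1.004 for the microglia sum, 1.45 to 1.64, 0.32 to 0.53 and -1.24 to -1.02 for the border sum, and 0.31 to 0.44, 0.23 to 0.36 and -0.14 to -0.01 for the ratio (cKO and dKO against control, then dKO against cKO). The cause of these moves was not tested.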
